A study of Mus musculus with 10 samples.

Results

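The miR-379 to miR-410 cluster is a run of miRNA hairpins on mouse chromosome 12, in the distal stretch of the imprinted region between Dlk1 and Dio3. The members studied here come from 36 of its hairpins. Its members were taken as every mature miRNA name in the read table whose miRBase number is among 34 belonging to the cluster, with any letter and either arm. That gave 72 of the 1432 mature names in the table, from 33 of the 34 numbers, since no miR-654 name was among them. Of the 72 members, 68 had at least 1 read, and 53 had enough reads to be tested.

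The samples are small RNA libraries of mouse cortex at E13.5, an embryonic stage when progenitors of the cortical wall are producing the first neurons. The 10 libraries form 5 groups of 2 mice. These are mice with a conditional knock-out of Dicer (Dicer KO) and their wild types (Dicer WT), and mice with a conditional knock-out of DGCR8 (DGCR8 KO), heterozygotes of that line (DGCR8 HET) and its wild types (DGCR8 WT). The sources used here name neither the Cre driver and the cells it acts in, nor how many cells were deleted, nor strain or sex. In a conditional knock-out, cells in which Cre is not active keep the gene, so the libraries may mix deleted and undeleted cells, and fewer cells of a type cannot be told apart from less miRNA per cell. Small RNA reads do not cover the Dicer or DGCR8 transcripts, so the deletion itself was not checked.

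A miRNA starts as a hairpin in a long primary transcript. DGCR8 and its partner Drosha cut the hairpin out in the nucleus, Dicer removes its loop in the cytoplasm, and a strand from the 5p or the 3p arm is loaded into an Argonaute protein. Bases 2 to 8 of the loaded strand, the seed, pair with target mRNAs. The cluster is found in placental mammals and is made from the chromosome inherited from the mother, as part of long transcripts that also yield Meg3, Rian and Mirg. It is strongly expressed in the developing and adult brain, and in neurons its transcription responds to activity through the factor Mef2. Several members act in neurons. miR-134 restrains dendritic spine size by repressing Limk1 in rat hippocampal neurons. miR-369-3p, miR-496 and miR-543 repress N-cadherin in the mouse cortex, a change that affects neuron production and migration.

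The mature sequences below are those the results turn on, read from RefSeq for GRCm38.p6, 5′ to 3′, with the seed in capitals. The first 5 lines are the 5 most abundant members, the next 3 complete the miR-379 and miR-411 arms, the following 2 are a pair from the miR-376 hairpins, 4 have a described role in neurons or the cortex, and the last 2 come from hairpins on opposite strands.
miR-410-3p: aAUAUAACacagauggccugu
miR-411-5p: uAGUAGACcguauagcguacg
miR-381-3p: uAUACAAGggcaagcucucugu
miR-541-5p: aAGGGAUUcugauguuggucacacu
miR-300-3p: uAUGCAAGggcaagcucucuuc
miR-379-5p: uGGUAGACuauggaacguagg
miR-379-3p: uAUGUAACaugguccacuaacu
miR-411-3p: uAUGUAACacgguccacuaacc
miR-376a-3p: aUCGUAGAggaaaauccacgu
miR-376b-3p: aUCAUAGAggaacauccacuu
miR-134-5p: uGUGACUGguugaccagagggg
miR-369-3p: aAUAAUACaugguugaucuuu
miR-496a-3p: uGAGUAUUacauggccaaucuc
miR-543-3p: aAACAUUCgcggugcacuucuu
miR-299a-3p: uAUGUGGGacgguaaaccgcuu
miR-299b-3p: uAUGUGGGacgguaaacc

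RefSeq held a mature sequence for 68 of the 72 members, and those without one were miR-376c-3p, miR-485-5p, miR-487b-3p and miR-539-3p. Read along the alignment without gaps, with positions counted from 1 at the 5′ end, miR-300-3p and miR-381-3p were identical at 19 of 22 bases and differed by G4A, U21G and C22U, so their seeds differ at base 4. miR-379-5p and miR-411-5p shared 14 of 21 bases, with G2A the difference inside the seed. miR-376a-3p and miR-376b-3p shared 18 of 21 bases and differed by G4A, A13C and G20U. miR-379-3p and miR-411-3p had the same seed and differed by U10C and U22C. A whole seed was shared within 6 pairs of members: miR-379-3p and miR-411-3p, miR-299a-3p and miR-299b-3p, miR-379-5p and miR-1193-5p, miR-1197-5p and miR-758-5p, miR-494-5p and miR-410-5p, and miR-376b-5p and miR-376c-5p. All 18 bases of miR-299b-3p were the first 18 of miR-299a-3p, so a read of those bases alone cannot be assigned to either. Of the reads named miR-299b-3p, 90.5% went on with GCT, the next 3 bases of miR-299a-3p. These reads match miR-299a-3p, and the counts of both names are uncertain.

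The 36 member hairpins span chr12:109709060-109743795 in GRCm38, a stretch of 34736 bases, from Mir379 to Mir410. Mir654 and Mir453 are annotated in the same stretch but gave no member. All 36 lie on the plus strand except Mir299b, which lies opposite Mir299a. In the GENCODE annotation the hairpins before Mir382 overlap no host gene, and those from Mir382 onward lie in the long non-coding gene Mirg. Mir382, Mir134, Mir668, Mir485, Mir377, Mir412, Mir369 and Mir410 overlap exons of Mirg, and Mir154, Mir496a, Mir541 and Mir409 lie in its introns.

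Libraries held from 800623 to 4486774 reads assigned to miRNAs, with Dicer KO the shallowest at 983318 and 800623 reads. Members took 451772 reads in all, from 23093 to 81865 per library. Counts were tested with edgeR on 557 miRNAs that passed a filter on low counts. Levels are edgeR's CPM (reads scaled to a library of fixed size) after TMM scaling, which sets each library against the bulk of its miRNAs, so an absolute loss or gain common to them is invisible. A member was called changed at a Benjamini-Hochberg adjusted p below 0.05 over the 557 miRNAs, and changes are log2 fold changes ± SE with n = 2 mice per group. Their p-values measure the spread between these mice. Neuron-enriched miRNAs (11 names, all tested) took from 1.27% to 2.82% of reads. The shares of progenitor, vessel, mesenchymal, choroid plexus and muscle miRNAs differed between genotypes and are given beside each knock-out. The columns of the DGCR8 line carry another number in their names than the sample descriptions. They were assigned by line and index, a match on which all DGCR8 values depend.

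A few members made up most of the cluster's reads. miR-410-3p, miR-411-5p, miR-381-3p, miR-541-5p and miR-300-3p together took from 70.4% to 74.1% of the member reads in every library. miR-410-3p had the highest mean level over the 10 libraries. It was the first in the DGCR8 line and in Dicer WT, while in Dicer KO miR-411-5p was above it. Of member reads, miR-411-5p took 20.2% and 19.2% in Dicer KO and 15.6% and 16.8% in Dicer WT, and miR-410-3p took 17.4% and 15.8% in Dicer KO and 21.6% and 22.3% in Dicer WT. In DGCR8 KO, miR-410-3p took 23.5% and 22.1% of member reads and miR-411-5p 13.0% in each library, against 24.1% in each library and 13.47% and 13.6% in DGCR8 WT. These shares have no test of their own. At the other end, 15 members with reads fell below the filter, the largest of them miR-323-5p with 54 reads over the 10 libraries. miR-299b-5p, miR-382-3p, miR-487b-5p and miR-758-5p had no read, which allows up to 3.05 and 3.75 CPM before scaling in the Dicer KO libraries and up to 0.749 and 0.669 CPM in the Dicer WT libraries (3 counts per library).

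**Figure D1:**
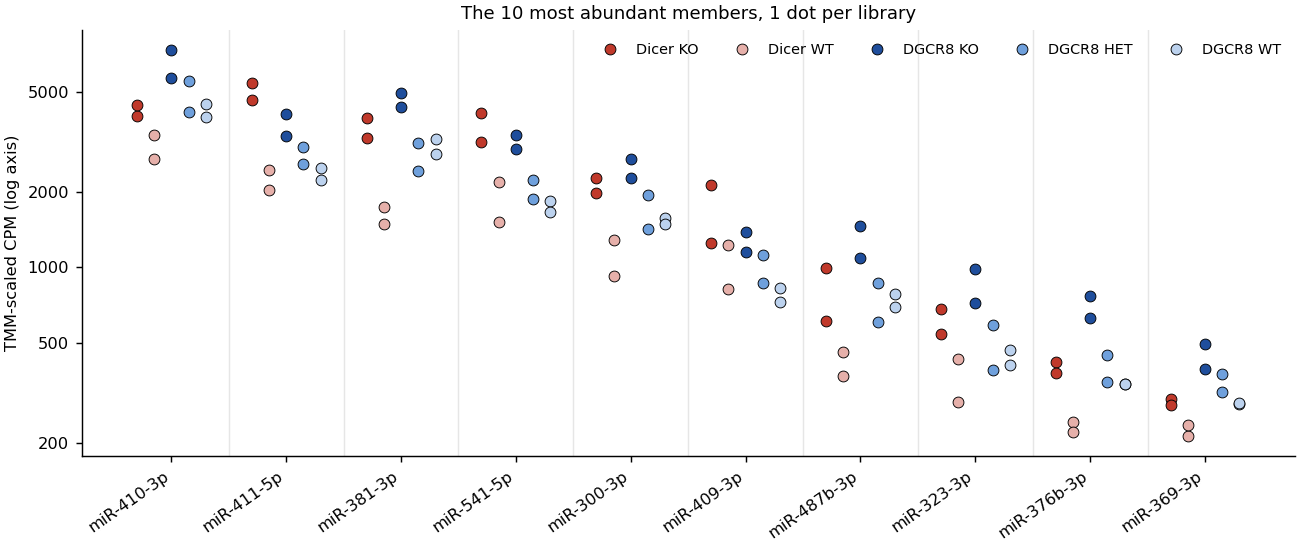
TMM-scaled CPM on a log axis for the 10 members with the highest mean level, with 1 dot per library and 5 groups per member. In all 10 members both Dicer KO dots lie above both Dicer WT dots and both DGCR8 KO dots above both DGCR8 WT dots, while under scaling to the vessel and blood miRNAs the fitted Dicer KO changes of all 10 lie below 0.

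The first comparison asks how the cluster stood among the miRNAs of the cortex after deletion of the enzyme that removes the hairpin loop. Its members took 2.35% and 2.92% of miRNA reads in Dicer KO, against 1.41% and 1.04% in Dicer WT, and no library of either group reached the other's range. The widest Wilson 95% interval of these shares, in Dicer KO replicate 2, ran from 2.88% to 2.96%, far narrower than the gap between mice. The ratio of the group means was 2.16. With 2 libraries a group, the smallest two-sided p of an exact permutation test is 0.333, and shares were not tested. By edgeR's quasi-likelihood test under TMM, 23 of 53 tested members rose and 0 fell (14.9% of all tested miRNAs were called higher and 16% lower). Scaling to the vessel and blood miRNAs turned this to 0 rises and 10 falls, with the median of all tested miRNAs at −1.45. The share of all miRNAs called lower under it is not given here, so the 10 falls have no match over all miRNAs. Under that scaling 17 of the 23 had a change below 0, and those above 0 were miR-379-3p, miR-299b-3p, miR-299a-3p, miR-539-5p, miR-299a-5p and miR-134-3p. The rises given below are those under TMM. The median log2 fold change of the tested members was 0.79, beside −0.01 for all tested miRNAs. A change of scaling moves all miRNAs of a library alike, so the gap between these medians is nearly fixed and tests no scaling. The member median stood 0.80 above the median of all miRNAs under TMM and 0.80 above it under scaling to the vessel and blood miRNAs, where the medians were −0.65 for members and −1.45 for all.

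Vessel and blood miRNAs took 3.36% and 3.95% of reads in Dicer KO, against 1.27% and 1.02% in Dicer WT. Of the 18 names on that list, 14 were tested, 3 had reads below the filter and miR-150-3p had no read, and 10 of the 14 were called higher. Mesenchymal miRNAs took 0.311% and 0.476% in Dicer KO, against 0.169% and 0.131% in Dicer WT, with 0 of 7 called. The choroid plexus and epithelial list took 0.784% and 2.04% in Dicer KO, against 0.333% and 0.923% in Dicer WT, with 1 of 12 called higher and the groups overlapping. Muscle miRNAs took 0.00559% and 0.00187% in Dicer KO, against 0.000874% and 0.000513% in Dicer WT, and the tested name, miR-133a-3p, rose by 2.14 ± 0.45 (adjusted p = 0.00759). Of the neuron-enriched miRNAs, 2 of 11 were called higher and 2 lower. miR-92b-3p and miR-9-5p, abundant in cortical progenitors, together took 12.6% and 10.7% in Dicer KO, against 20.3% and 22.3% in Dicer WT, and both fell, by 1.71 ± 0.12 and 0.86 ± 0.17 on the log2 scale. The part of these cells and tissues in the cluster's change was not tested. Leaving out a library leaves 1 in its group, which is then assumed to vary like the other groups. Without Dicer WT replicate 2 there were 6 member calls and without Dicer KO replicate 2 there were 9, all higher, and the member median ran from 0.71 to 1.05 over the 4 omissions. Those that kept their call without any library of the comparison in turn were miR-411-5p, miR-381-3p, miR-379-3p and miR-134-3p.

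Among the abundant members, miR-411-5p had 4649.8 and 5426 CPM in Dicer KO and 2456 and 2042 CPM in Dicer WT. It rose by 1.16 ± 0.17 (adjusted p = 0.00151), and the groups were far apart. miR-381-3p, which with miR-134 and miR-329 is needed for activity-driven dendrite growth in rat hippocampal neurons, had 3271 and 3940.4 CPM in Dicer KO and 1738 and 1496 CPM in Dicer WT. Its rise was of the same size, 1.16 ± 0.18 (adjusted p = 0.00173). Its near copy miR-300-3p had 1986 and 2273 CPM in Dicer KO and 1288 and 925 CPM in Dicer WT, a rise of 0.94 ± 0.21 (adjusted p = 0.00934). miR-541-5p had 3156 and 4141 CPM in Dicer KO and 2198 and 1522 CPM in Dicer WT. It rose by 0.97 ± 0.21 (adjusted p = 0.00819). The most abundant member did not pass the edgeR test under TMM. miR-410-3p had 4011 and 4464 CPM in Dicer KO and 3388 and 2719 CPM in Dicer WT, a difference of 0.47 ± 0.19 (adjusted p = 0.0942). Scaling to the vessel and blood miRNAs put it at −0.97 (adjusted p = 0.0192), called lower. Of the 10 most abundant members 6 were called higher, and in all 10 the libraries of the 2 groups did not overlap, a pattern 42 of the 53 members showed in this direction and 33.2% of all tested miRNAs.

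The largest change belonged to miR-379-3p, the rarer arm of the first hairpin. It had 69.9 and 106 CPM in Dicer KO and 21.8 and 16.0 CPM in Dicer WT, a rise of 2.22 ± 0.35 (adjusted p = 0.00203). This is a 4.65-fold difference, while its partner arm miR-379-5p rose by 1.00 ± 0.20 (adjusted p = 0.00648), with 149.7 and 140.3 CPM in Dicer KO and 79.8 and 65.2 CPM in Dicer WT. Reads of miR-299b-3p and miR-299a-3p, which cannot be fully told apart, rose by 1.77 ± 0.40 and 1.45 ± 0.38, and miR-299a-5p rose by 1.75 ± 0.52. Both arms of the spine regulator miR-134 rose under TMM, and scaling to the vessel and blood miRNAs put miR-134-5p at −0.095. miR-134-5p had 162 and 300.0 CPM in Dicer KO and 117 and 64.4 CPM in Dicer WT (1.35 ± 0.36, adjusted p = 0.0210). miR-134-3p had 19.96 and 19.4 CPM in Dicer KO and 7.25 and 4.97 CPM in Dicer WT (1.68 ± 0.33, adjusted p = 0.00562). The replicates of miR-134-5p were further apart from each other than those of miR-134-3p.

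Other members with a described role were spread over the range. miR-485-5p, which represses the synaptic vesicle protein SV2A in rat hippocampal neurons, had 76.9 and 123 CPM in Dicer KO and 42.4 and 32.5 CPM in Dicer WT, a rise of 1.41 ± 0.30 (adjusted p = 0.00759). miR-154-5p had 108 and 90.7 CPM in Dicer KO and 42.7 and 32.7 CPM in Dicer WT, a rise of 1.40 ± 0.32 (adjusted p = 0.00968). miR-329-3p rose by 1.01 ± 0.25, with 74.9 and 100.4 CPM in Dicer KO and 45.7 and 41.1 CPM in Dicer WT (adjusted p = 0.0139). miR-409-5p rose by 1.42 ± 0.33 and miR-539-5p by 1.65 ± 0.37. The 3p strands of the miR-376 hairpins rose under TMM, miR-376a-3p by 1.01 ± 0.24, miR-376b-3p by 0.79 ± 0.18 and miR-376c-3p by 1.08 ± 0.29, and stood at −0.44, −0.65 and −0.35 under scaling to the vessel and blood miRNAs. None of the N-cadherin regulators passed the edgeR test in Dicer KO under TMM. Scaling to the vessel and blood miRNAs put miR-369-3p at −1.07 (adjusted p = 0.0166) and miR-496a-3p at −1.75 (adjusted p = 0.0157), both called lower. It put miR-543-3p at −0.81 (adjusted p = 0.0928). The values that follow are those under TMM. miR-369-3p had 299 and 282 CPM in Dicer KO and 212 and 234 CPM in Dicer WT (0.38 ± 0.18, adjusted p = 0.131). miR-543-3p had 144 and 282 CPM in Dicer KO and 164 and 107 CPM in Dicer WT (0.65 ± 0.37, adjusted p = 0.199), and its groups overlapped. miR-496a-3p was rare, with 6.99 and 1.21 CPM in Dicer KO and 5.86 and 5.24 CPM in Dicer WT (−0.35 ± 0.54, adjusted p = 0.626). Of the 23 role-named members 15 were called higher, beside 23 of all 53 members and 14.9% of all tested miRNAs, and the 30 tested members not called ran from −0.35 to 1.26.

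**Figure D2:**
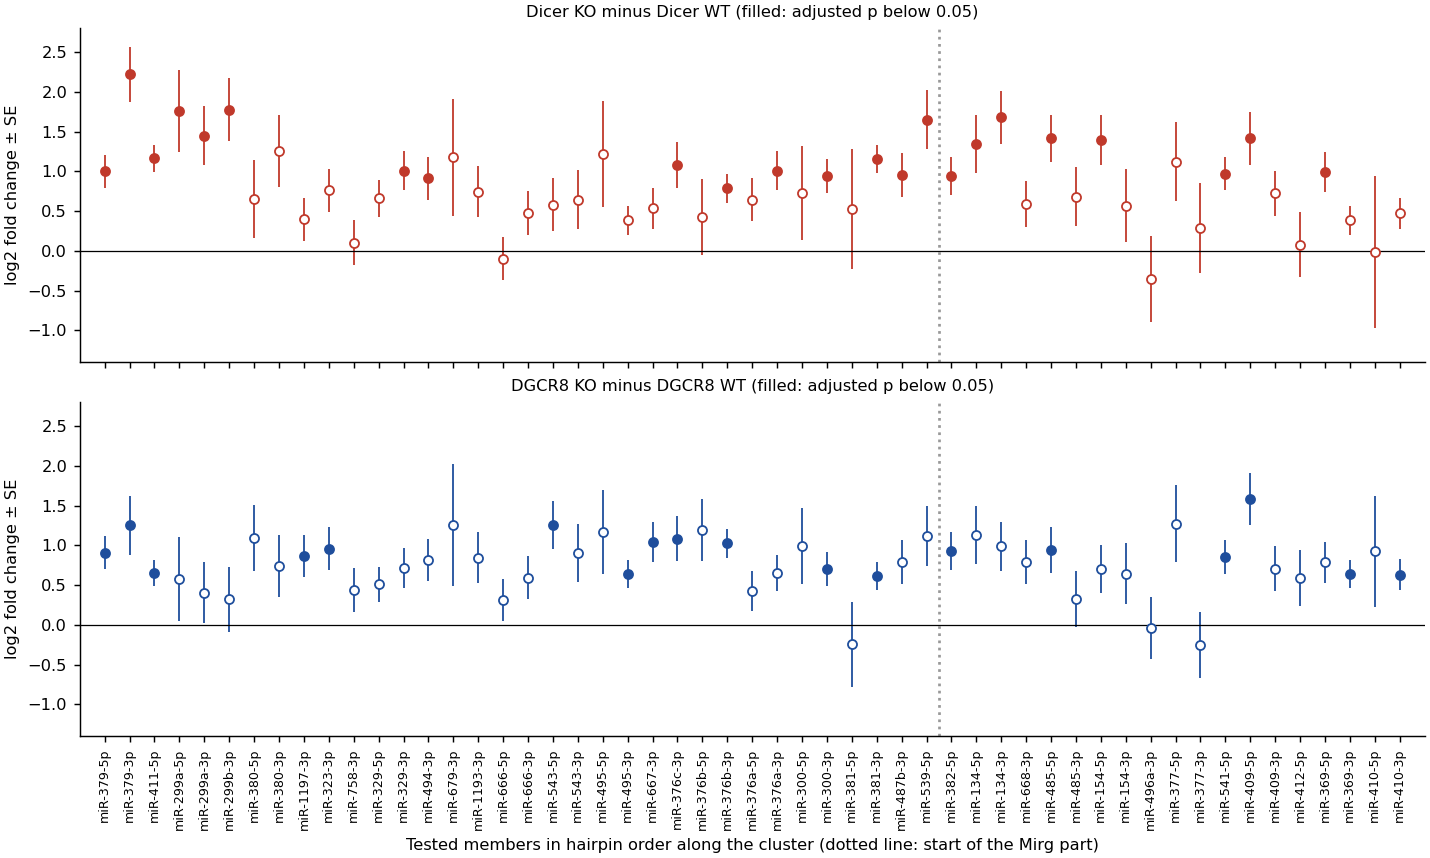
Log2 fold change ± SE of the 53 tested members in hairpin order from Mir379 to Mir410, for Dicer KO minus Dicer WT above and DGCR8 KO minus DGCR8 WT below, with called members filled. In each comparison 50 of 53 points lie above 0, spread over the whole length of the cluster, under TMM scaling; scaling to the vessel and blood miRNAs moves the Dicer KO median below 0, to −0.65.

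The same question was put to the nuclear step in the DGCR8 line, which has its own wild types. Members took 4.07% and 3.12% of miRNA reads in DGCR8 KO, against 1.79% and 1.51% in DGCR8 WT, and the ratio of the means was 2.18. edgeR's quasi-likelihood test called 18 of 53 members higher and 0 lower, where 8.8% of all tested miRNAs were called higher and 11.8% lower. The median of the tested members was 0.79, beside 0.02 for all tested miRNAs. The gap between these medians, which scaling hardly moves by construction, was 0.77 under TMM. Leaving out any of the 4 libraries of the comparison, with the lone library of that group assumed to vary like the others, left 0 or 1 call (1 without DGCR8 WT replicate 1, 0 without DGCR8 WT replicate 2, 0 without DGCR8 KO replicate 1 and 1 without DGCR8 KO replicate 2), while the member median ran from 0.63 to 1.01. Scaling to the vessel and blood miRNAs left 0 calls, with all 18 called members still above 0, and moved the median of all miRNAs to −0.31. Vessel and blood miRNAs took 1.08% and 0.966% of reads in DGCR8 KO, against 0.611% and 0.610% in DGCR8 WT, with 2 of 14 called higher. Mesenchymal miRNAs took 0.103% and 0.0969% in DGCR8 KO, against 0.0743% and 0.0751% in DGCR8 WT, with 0 of 7 called, and the choroid plexus and epithelial list took 0.330% and 0.136% in DGCR8 KO, against 0.127% and 0.134% in DGCR8 WT, with 1 of 12 called higher. Muscle miRNAs took 0.00482% and 0.00365% in DGCR8 KO, against 0.00123% and 0.00103% in DGCR8 WT, and miR-133a-3p rose by 1.51 ± 0.43 (adjusted p = 0.0403). Neuron-enriched miRNAs took 2.82% and 2.64% in DGCR8 KO, against 2.65% and 2.75% in DGCR8 WT, with 4 of 11 called higher and 2 lower. miR-92b-3p and miR-9-5p together took 12.996% and 12.9% in DGCR8 KO, against 18.2% and 19.8% in DGCR8 WT, and both fell, by 1.44 ± 0.12 and 0.84 ± 0.17 on the log2 scale. The part of these cells and tissues in the cluster's change was not tested.

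miR-376b-3p had the smallest adjusted p of the members here. It had 769 and 629 CPM in DGCR8 KO and 343 CPM in each DGCR8 WT library, a rise of 1.03 ± 0.18 (adjusted p = 0.0106). The largest called change was that of miR-409-5p, with 36.2 and 30.1 CPM in DGCR8 KO and 14.7 and 7.22 CPM in DGCR8 WT, a rise of 1.58 ± 0.33 (adjusted p = 0.0153). Its abundant partner miR-409-3p, which favours corticospinal over callosal neuron identity in mice, had 1379 and 1151 CPM in DGCR8 KO and 827 and 725 CPM in DGCR8 WT. That difference, 0.71 ± 0.29, did not pass the test (adjusted p = 0.110), although the groups did not overlap.

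All 5 of the most abundant members rose in DGCR8 KO. miR-410-3p had 7402 and 5702 CPM in DGCR8 KO and 4473 and 3979.8 CPM in DGCR8 WT, a rise of 0.63 ± 0.19 (adjusted p = 0.0481). miR-411-5p had 4104 and 3348 CPM in DGCR8 KO and 2501 and 2240.1 CPM in DGCR8 WT, a rise of 0.65 ± 0.17 (adjusted p = 0.0310). miR-381-3p, miR-541-5p and miR-300-3p rose by 0.62 ± 0.17, 0.85 ± 0.21 and 0.70 ± 0.21. In each of these 5 both DGCR8 KO libraries lay above both DGCR8 WT libraries, as they did in 43 of the 53 members and, in this direction, in 32.9% of all tested miRNAs.

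Further down the scale, both arms of miR-379 rose, miR-379-5p by 0.91 ± 0.20 (adjusted p = 0.0199) and miR-379-3p by 1.25 ± 0.37 (adjusted p = 0.0444). miR-379-3p had 23.1 CPM in each DGCR8 KO library and 11.1 and 8.12 CPM in DGCR8 WT. miR-667-3p, miR-376c-3p, miR-323-3p, miR-382-5p, miR-485-5p and miR-1197-3p rose by 1.04, 1.09, 0.96, 0.93, 0.95 and 0.87. Of the N-cadherin regulators, miR-369-3p rose by 0.63 ± 0.18 (adjusted p = 0.0390), with 495 and 393 CPM in DGCR8 KO and 284 and 287 CPM in DGCR8 WT. miR-543-3p had 299 and 217 CPM in DGCR8 KO and 157 and 119 CPM in DGCR8 WT (0.90 ± 0.36, adjusted p = 0.110), and miR-496a-3p 11.2 and 9.15 CPM in DGCR8 KO and 11.9 and 9.03 CPM in DGCR8 WT (−0.04 ± 0.39, adjusted p = 0.956). miR-495-3p, which targets Bdnf and Camk2a in the rat nucleus accumbens, rose by 0.64 ± 0.18 (adjusted p = 0.0390). miR-134-5p had 166 and 124 CPM in DGCR8 KO and 72.4 and 59.6 CPM in DGCR8 WT and just missed the threshold (1.13 ± 0.36, adjusted p = 0.0550). miR-377-3p was rare and not called, with 6.16 and 4.30 CPM in DGCR8 KO and 5.57 and 7.22 CPM in DGCR8 WT. Of the 23 role-named members 13 were called higher, beside 18 of all 53 members and 8.8% of all tested miRNAs. Changes of the 23 ran from −0.25 to 1.25.

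The effects in the 2 lines were set against each other with an interaction term, which asks whether the DGCR8 KO change differs from the Dicer KO change. 0 of 53 members were called by edgeR (2.15% of all tested miRNAs were), and DESeq2 called 0. By edgeR 1 member had an unadjusted p below 0.05, beside 114 of all 557 tested miRNAs. That member was miR-299b-3p, most of whose reads match miR-299a-3p, at −1.45 ± 0.57 (adjusted p = 0.185). The differences ran from −1.45 to 0.93 with a median of −0.02, and their SE from 0.24 to 1.14, set beside a median change of 0.79 in each knock-out. For miR-379-3p the difference was −0.96 ± 0.51 (adjusted p = 0.337), and for the abundant miR-411-5p and miR-381-3p −0.51 ± 0.24 (adjusted p = 0.275) and −0.54 ± 0.25 (adjusted p = 0.263). The median lay below 0 in this fit and above it, at 0.17, with library totals, at 0.05 with TMM factors taken without the members, and at 1.09 with scaling to the vessel and blood miRNAs. In that order, from this fit on, the medians of all tested miRNAs were 0.02, 0.20, 0.10 and 1.13. By calls alone, 11 members were called higher in both knock-outs, where 5.03% of all tested miRNAs were. That is 47.8% of the members called in Dicer KO and 61.1% of those called in DGCR8 KO, beside 33.7% and 57.1% of the calls among all tested miRNAs, and the overlap was not tested. The 11 were miR-300-3p, miR-376b-3p, miR-376c-3p, miR-379-3p, miR-379-5p, miR-381-3p, miR-382-5p, miR-409-5p, miR-411-5p, miR-485-5p and miR-541-5p. Of the 53 tested members 23 were called in neither. Over all 557 tested miRNAs, 83 were called higher in Dicer KO, 49 in DGCR8 KO and 28 in both.

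DGCR8 HET was compared with DGCR8 WT to ask whether loss of a single copy moved the cluster. It took 2.13% and 1.58% of miRNA reads in DGCR8 HET, against 1.79% and 1.51% in DGCR8 WT, and the groups overlapped. edgeR called 0 of 53 members (0% of all tested miRNAs), and DESeq2 called 0. By edgeR 1 member had an unadjusted p below 0.05, beside 23 of all 557 tested miRNAs. The median was 0.22, beside 0.02 for all tested miRNAs, and it was −0.01 under scaling to the vessel and blood miRNAs. miR-410-3p had 5569 and 4162 CPM in DGCR8 HET and 4473 and 3979.8 CPM in DGCR8 WT (0.20 ± 0.19, adjusted p = 0.993). miR-381-3p had 3128 and 2436 CPM in DGCR8 HET and 3248 and 2834 CPM in DGCR8 WT (−0.13 ± 0.17, adjusted p = 0.993). In DGCR8 HET replicate 2 the vessel and blood miRNAs took 0.969% of reads, against 0.602% in replicate 1, and the choroid plexus and epithelial list took 0.560% against 0.104%.

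Set against DGCR8 HET, whose values also enter the previous comparison, DGCR8 KO had 3 members called higher and 0 lower (1.97% of all tested miRNAs were called higher and 6.64% lower), with a median of 0.56. They were miR-376b-3p (0.81 ± 0.18, adjusted p = 0.0242), miR-381-3p (0.75 ± 0.18, adjusted p = 0.0279) and miR-409-5p (1.37 ± 0.32, adjusted p = 0.0285). miR-409-5p had 36.2 and 30.1 CPM in DGCR8 KO and 11.8 and 13.96 CPM in DGCR8 HET. None of the 3 calls held without DGCR8 HET replicate 2, without DGCR8 KO replicate 1 or without DGCR8 KO replicate 2, while the member median ran from 0.47 to 0.82 over the 4 omissions.

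The wild types of the 2 lines were compared as a check of the ground level. DGCR8 WT against Dicer WT gave 1 member called higher and 0 lower (2.69% of all tested miRNAs were called higher and 4.85% lower), and a median of 0.14. The member was miR-381-3p, with 3248 and 2834 CPM in DGCR8 WT and 1738 and 1496 CPM in Dicer WT (0.91 ± 0.18, adjusted p = 0.0206). Without each of the 4 libraries in turn the change ran from 0.84 to 1.08, with edgeR adjusted p from 0.0684 to 0.160 and the lone library assumed to vary like the other groups. Vessel and blood miRNAs took 0.611% and 0.610% in DGCR8 WT, against 1.27% and 1.02% in Dicer WT, with 7 of 14 called lower. Neuron-enriched miRNAs took 2.65% and 2.75% in DGCR8 WT, against 1.61% and 2.04% in Dicer WT, with 6 of 11 called higher. Mesenchymal miRNAs had 5 of 7 called lower, and the choroid plexus and epithelial list 1 of 12, with all 12 below 0. Of the 2 progenitor miRNAs 1 was called lower, and the muscle name was not called. The part of these differences in the miR-381-3p call was not tested. Line and the number in the column names go together, so the line and any difference between pools or runs cannot be told apart in this comparison.

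**Figure D3:**
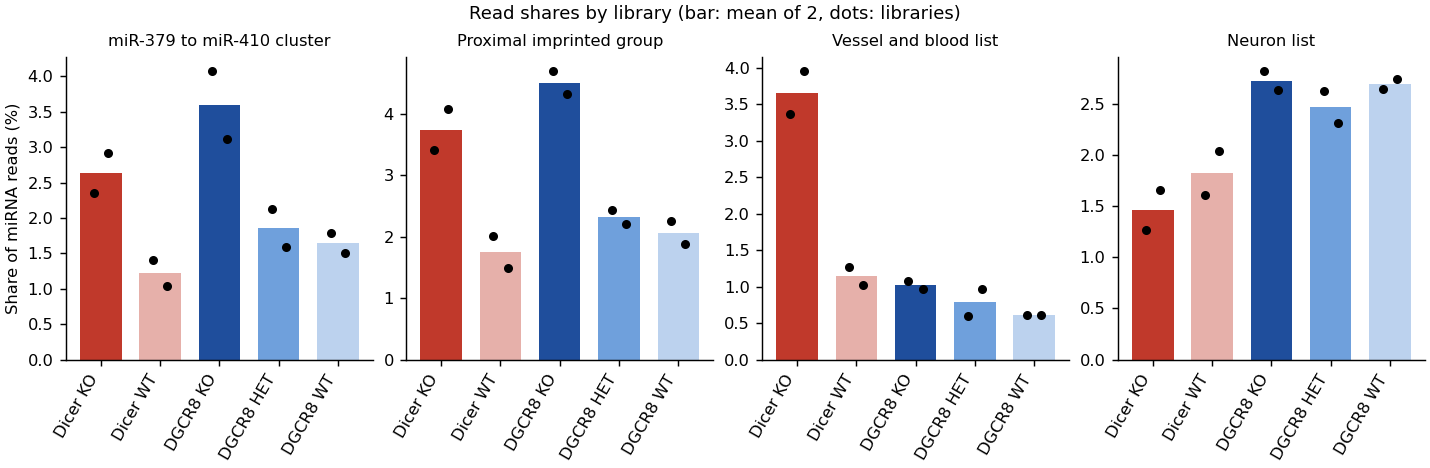
Share of miRNA reads, in percent, taken by the miR-379 to miR-410 cluster, by the proximal imprinted group, by vessel and blood miRNAs and by neuron-enriched miRNAs; bars are means of 2 libraries and dots are libraries. The cluster and the proximal group are higher in each knock-out than in its wild type, vessel and blood miRNAs reach 3.36% and 3.95% in Dicer KO, and neuron-enriched miRNAs take 1.27% and 1.66% in Dicer KO, against 1.61% and 2.04% in Dicer WT.

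The proximal group of the same imprinted region, which includes miR-127, miR-434, miR-136 and miR-370 and lies upstream in the maternal transcripts, was placed beside the cluster. Its 35 names took 3.41% and 4.07% of reads in Dicer KO, against 2.01% and 1.49% in Dicer WT, and 4.69% and 4.32% in DGCR8 KO, against 2.26% and 1.88% in DGCR8 WT. Of its 24 tested names, 8 were called higher and 0 lower in Dicer KO with a median of 0.79, and 9 were called higher and 0 lower in DGCR8 KO with a median of 0.76, while its Dicer KO median was −0.64 under scaling to the vessel and blood miRNAs. Beside these, 14.9% of all tested miRNAs were called higher in Dicer KO and 8.8% in DGCR8 KO. No test of a difference between the cluster and the proximal group was made. Within the cluster, the 32 tested members with RefSeq positions before Mirg had a median of 0.77 in Dicer KO and 0.78 in DGCR8 KO, and the 18 in Mirg 0.70 in Dicer KO and 0.75 in DGCR8 KO. By arm, again under TMM, 11 of 23 tested 5p and 12 of 30 tested 3p members were called higher in Dicer KO. In DGCR8 KO these were 7 of 23 and 11 of 30. The shares over all tested miRNAs of both arms were 14.9% and 8.8%. Under TMM scaling, Spearman's rho between position and log2 fold change over these 50 members was −0.29 in Dicer KO and −0.03 in DGCR8 KO, and rho with mean CPM over the 53 was −0.01 and −0.11. These members share libraries and primary transcripts and are not independent points.

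The use of the 2 arms of a hairpin does not depend on library scaling and was tested with limma on the log2 ratio of 3p to 5p reads. Of the 36 hairpins, 23 had more 3p and 13 more 5p reads over all libraries. Of the 18 with enough reads on both arms, 0 were called in Dicer KO against Dicer WT (2.7% of all 148 tested hairpins were). By limma 5 of the 18 had an unadjusted p below 0.05, beside 35 of all 148. 0 of the 18 were also called in DGCR8 KO against DGCR8 WT (0% of all), in DGCR8 HET against DGCR8 WT (0% of all) and for the difference between the knock-out effects (0% of all). In that order, 2, 0 and 0 of the 18 passed unadjusted, beside 14, 7 and 13 of all 148. The 5 in Dicer KO were miR-379, miR-485, miR-666, miR-154 and miR-369. For miR-379, the 3p arm held 31.8% and 43.1% of reads in Dicer KO, against 21.4% and 19.7% in Dicer WT, a log2 ratio change of 1.20 ± 0.29 (adjusted p = 0.0699). It held 14.96% and 16.9% in DGCR8 KO, against 13.6% and 12% in DGCR8 WT (0.35 ± 0.29, adjusted p = 0.692). For miR-485 the 3p share was 23.8% and 26.6% in Dicer KO, against 34.8% and 38.0% in Dicer WT (−0.75 ± 0.18, adjusted p = 0.0699), and 28.5% and 23.9% in DGCR8 KO, against 36.2% and 34.8% in DGCR8 WT (−0.64 ± 0.18, adjusted p = 0.389). In both lines its knock-out libraries lay below the wild types. With a minimum count 4 times higher, which left 8 member hairpins, miR-379, miR-485 and miR-666 were called in Dicer KO, each with adjusted p = 0.0359.

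**Figure D4:**
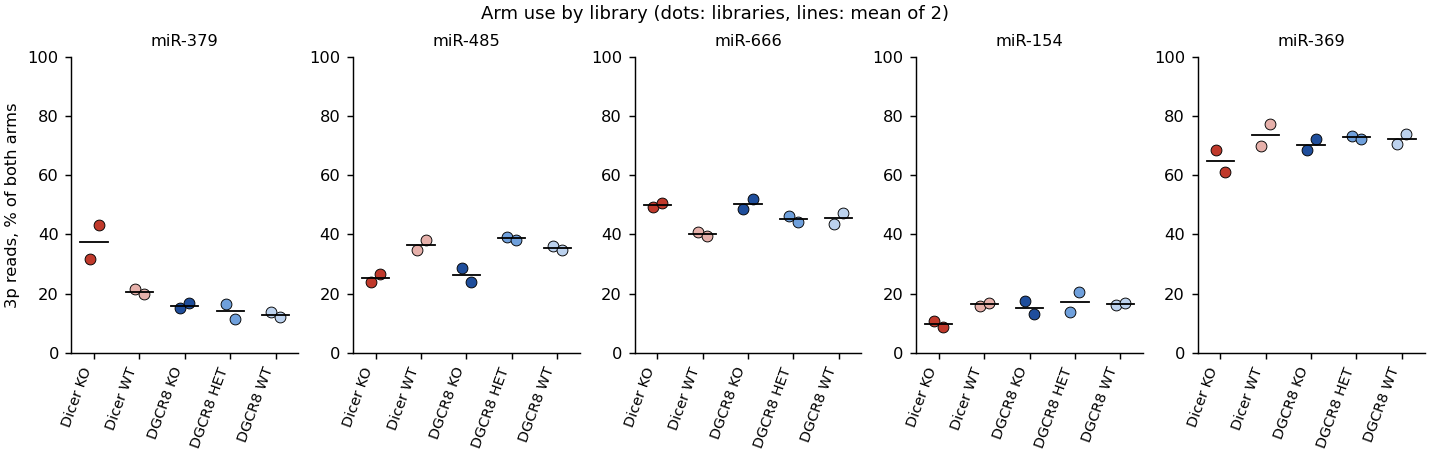
Share of 3p reads among the reads of both arms, in percent by library, for the 5 member hairpins with an unadjusted limma p below 0.05 in Dicer KO against Dicer WT. Such a p was found for 35 of all 148 tested hairpins. Lines are means of 2 libraries. miR-379 stands at 31.8% and 43.1% in Dicer KO, above all other libraries, and miR-485 is lower in each knock-out than in its wild type; none of the 5 passed the adjusted threshold with the counts used in the main test.

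The table also splits each miRNA by bases found beyond its annotated 3′ end, from 1 to 3 of them, and does not say whether they match the genome. Reads with such bases made up from 15.4% to 19.4% of member reads, against 36.5% to 47.5% of all miRNA reads. The share differed widely between members and little between groups. In miR-758-3p all reads of all libraries carried added bases, and 89.4% of them carried ACC, the 3 bases that follow its 19-base mature form in the RefSeq hairpin. Of members picked here after their values were seen, miR-494-3p had them on 96.6% of reads, 83.5% with a single T, where the hairpin goes on with UUU. miR-300-3p had them on 56.2% of reads, with T on 30.4% and A on 24.3%, and 55.6% of its reads carried bases other than the GAG of its hairpin. Its near copy miR-381-3p, whose hairpin also goes on with GAG, had added bases on 1.31% of reads. miR-411-5p had them on 0.626% and miR-410-3p on 1.52%.

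limma on the log2 odds of added bases called 2 of 29 members in Dicer KO against Dicer WT, where 25.2% of all 282 tested miRNAs were called. miR-300-3p had added bases on 61.6% and 64.1% of reads in Dicer KO, against 55.1% and 54.4% in Dicer WT, a rise of 0.48 ± 0.11 (adjusted p = 0.0165). The call was lost without Dicer WT replicate 1 (0.50 ± 0.14, adjusted p = 0.0674) and without Dicer WT replicate 2 (0.46 ± 0.14, adjusted p = 0.0691), at about the same size. It had them on 56.3% and 58.0% in DGCR8 KO, against 55.6% and 53.8% in DGCR8 WT. The second, miR-758-3p (−1.88 ± 0.45, adjusted p = 0.0216), is no change of share: with 100% in all 10 libraries, the fitted odds follow the number of reads, which was 78 and 61 in Dicer KO and 308 and 211 in Dicer WT. 0 of 29 members were called in DGCR8 KO against DGCR8 WT (0% of all), in DGCR8 HET against DGCR8 WT (0% of all) or for the difference between the knock-out effects (7.09% of all). In that order, 2, 1 and 2 members had an unadjusted limma p below 0.05, beside 45, 14 and 67 of all 282 tested miRNAs. Over all member reads the share with added bases was 17.7% and 19.4% in Dicer KO, against 18.5% and 16.8% in Dicer WT, and 16.0% and 16.5% in DGCR8 KO, against 15.6% and 15.4% in DGCR8 WT. Beside these, over all miRNAs it was 42.9% and 47.5% in Dicer KO, against 41.8% and 38.9% in Dicer WT.

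**Figure D5:**
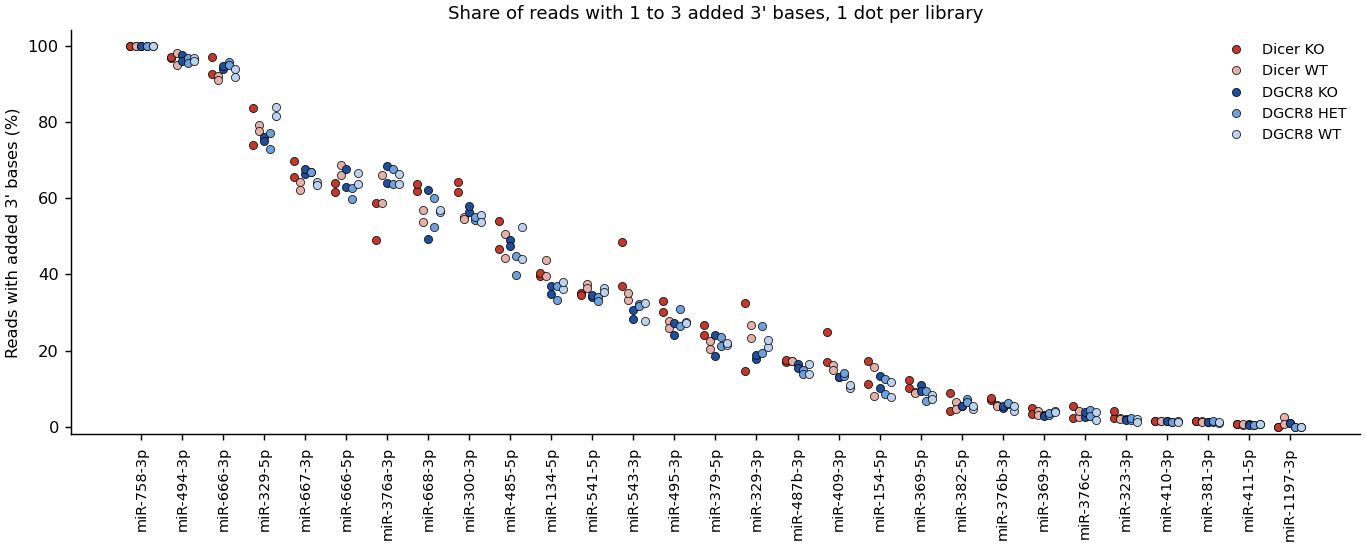
Share of reads with 1 to 3 added 3′ bases, in percent, for the 29 members with a mean of at least 100 reads per library, ordered by their mean, with 1 dot per library. The members run from 100% for miR-758-3p to means under 1% for miR-411-5p and miR-1197-3p. For miR-300-3p both Dicer KO dots, at 61.6% and 64.1%, lie above all other libraries.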

How the data were processed

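Small RNA reads of 10 libraries were analysed from the deposited table of raw read counts, in which the authors give 19414 entries, each a mature miRNA name with its 3′ suffix (no addition, or 1 to 3 bases). The submitters' processing notes name Bowtie and GRCm38. How mismatches and reads with several matches were treated is not given in the sources used here. Counts were summed per mature name. Libraries held from 800623 to 4486774 miRNA reads, which sets the precision of rare members. Members and lists were chosen with earlier results of these data known.

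Differences were tested with edgeR 4.0.16 (R 4.3.3; quasi-likelihood, TMM, 1 mean per group over all 10 libraries, filterByExpr with a minimum count of 10 and minimum total of 15, common biological coefficient of variation 0.230). Arm ratios and added bases were tested with limma 3.58.1 on log2 ratios with a pseudocount of 0.5, over hairpins with at least 50 mean reads on both arms together and 5 on the rarer arm, and over miRNAs with at least 100 mean reads. Adjustment was by Benjamini-Hochberg over all features tested. Alternatives were library totals, DESeq2 1.42.0 size factors and Wald test, TMM without the members, scaling to the summed vessel and blood miRNAs, no filter, reads without additions, each line fitted apart, thinning to 800623 reads, a replicate block and leaving out each library. The scripts were tested on simulated data. Python 3.11.15 and pandas 2.3.3 were used for sums and shares. Floors and intervals cover counting error only. Members named with values were mostly drawn from the 10 most abundant and from up to 10 called members per comparison with the largest change, at least 10 CPM and no overlap. Others came from those with a described role in neurons or cortex, those sharing a seed, and those with a called arm ratio or added-base share. Not every such member is given values.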

Additional observations from a re-analysis of the deposited data

How the results depend on the processing

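Leaving out each library in turn gave 6 to 23 members called in Dicer KO against Dicer WT (median 0.71 to 1.05), 0 to 1 in DGCR8 KO against DGCR8 WT (median 0.63 to 1.01), 0 to 3 in DGCR8 KO against DGCR8 HET, and 0 in DGCR8 WT against Dicer WT (median 0.19 to 0.42). It gave 0 for the difference between the knock-out effects, whose median ran from −0.25 to 0.24 and was 0.22 without Dicer KO replicate 2 and 0.24 without DGCR8 KO replicate 2, 0 to 2 called arm ratios and 0 to 7 called added-base shares in Dicer KO, and 0 to 2 added-base shares for the difference. With library totals the medians were 1.02 in Dicer KO, 1.21 in DGCR8 KO (37 called) and 0.96 in DGCR8 KO against DGCR8 HET (22 called). The medians of all tested miRNAs were then 0.22, 0.43 and 0.33. Library totals called 3 members between the wild types. DESeq2 size factors, and TMM without the members, each called 6 in DGCR8 KO against DGCR8 HET and 4 between the wild types. The DESeq2 test called 11 and 5, and no filter 13 and 5, in those comparisons, and thinning called 6 in DGCR8 KO against DGCR8 HET. Fitting each line apart called 15 in Dicer KO, 32 in DGCR8 KO and 10 in DGCR8 KO against DGCR8 HET, and cannot give the comparisons across lines. For no setting in this section is the share of all tested miRNAs called given, so its counts of called members have no match over all miRNAs.

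Scaling to the vessel and blood miRNAs called 10 members in Dicer KO, all lower (median −0.65), and 0 in DGCR8 KO (median 0.45). It called 0 in DGCR8 KO against DGCR8 HET, 1 for the difference between effects (median 1.09) and 31 between the wild types (median 1.15). In that order, the medians of all tested miRNAs with this scaling were −1.45, −0.31, −0.12, 1.13 and 0.88. Under it the Dicer KO change was −0.97 for miR-410-3p, −0.28 for miR-411-5p, −0.29 for miR-381-3p, −0.47 for miR-541-5p, −0.49 for miR-300-3p, −0.51 for miR-487b-3p, −0.65 for miR-376b-3p, −1.07 for miR-369-3p, −0.43 for miR-379-5p, −0.095 for miR-134-5p, −0.036 for miR-485-5p, −0.44 for miR-329-3p, −1.06 for miR-495-3p, −0.44 for miR-376a-3p, −0.35 for miR-376c-3p, −0.50 for miR-382-5p, −0.024 for miR-154-5p, −0.53 for miR-494-3p, −0.45 for miR-369-5p and −0.032 for miR-409-5p. For miR-496a-3p it was −1.75. Of the members named here, those called lower by edgeR were miR-410-3p, miR-369-3p, miR-495-3p and miR-496a-3p. The cause was not tested. In Dicer KO, a minimum count 4 times higher gave 3 called arm ratios, reads without additions gave 1, and additions of 1 base gave 1 called added-base share. A pseudocount of 2 gave 1 for the difference, miR-758-3p.

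Replicate numbers do not mark shared litters or batches in the labels, and deviations of same-numbered libraries correlated at 0.0608 for Dicer KO and Dicer WT and at 0.167, 0.0348 and −0.05 for the DGCR8 pairs. With a replicate block, 23 members were called in Dicer KO (median 0.79), 13 in DGCR8 KO (median 0.77), 0 in DGCR8 HET (median 0.22), 4 in DGCR8 KO against DGCR8 HET (median 0.55), 0 for the difference between effects (median −0.03) and 1 between the wild types (median 0.35). It called 0 arm ratios in each comparison and 2 added-base shares in Dicer KO.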
